A study of Mus musculus with 10 samples.

Results

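Cytochrome P450 promoters were examined in MII oocytes of the mouse, which are mature eggs arrested at the second meiotic metaphase. The members were the 2000-bp promoter windows whose centre lay within 200 bp of the start of a protein-coding gene with a symbol of Cyp, a family number and a letter. Any RefSeq transcript start of such a gene counted as a start, also one inside a longer annotated gene. The reference gene table held 98 such genes. Of these, 68 had a window in at least 1 of the 3 deposited tables and 41 had one in all 3, out of 40537 nuclear windows that all 3 tables list. Each of the 41 genes is described by 1 window, chosen so that its least covered pool had as many calls as possible. The level is the methylated share of all CpG calls in the window, where a call is 1 read at 1 CpG.

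The groups were 2-month-old Tet2KO mice (3 libraries), 11-month-old WT mice (3 libraries) and 2-month-old WT mice (4 libraries), all labelled C57BL6/129. The labels name neither the knockout allele nor the number of females, and they give the input as 10 oocytes in one place and as a single oocyte in another. Each table holds a single pooled value per window and group, so no difference between pools could be tested and no spread between libraries is known. The nuclear windows held 5464356 calls in Tet2KO, 16993859 in 11-month WT and 9392359 in 2-month WT. Methylation was read by bisulfite sequencing, which does not tell methylcytosine from hydroxymethylcytosine. Of 12 maternally imprinted genes with a window in every pool, 10 were above 60% in all 3 pools, and the windows of Grb10 and Inpp5f were low. H19, which is methylated on the paternal allele, was at 2.5% in Tet2KO, 1.61% in 11-month WT and 4.21% in 2-month WT. The genotype was not checked here, since these tables hold methylation only.

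Cytochrome P450 enzymes are haem monooxygenases that insert oxygen into small molecules. Enzymes of the families numbered 1, 2 and 3 mostly act on drugs, dietary compounds and other foreign chemicals (xenobiotics), chiefly in liver, gut, lung and nasal mucosa. Other families make or break down defined body molecules: steroid hormones in the adrenal gland and gonads, bile acids and vitamin D in liver and kidney, retinoic acid in many tissues, and fatty acids. In the ovary, theca and granulosa cells carry out steroid synthesis with Cyp11a1, Cyp17a1 and Cyp19a1, and oocytes do not. Oocytes gain most of their DNA methylation during growth after birth.

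Most P450 promoters carried little methylation in the oocytes, and a few were almost fully methylated (plot of levels by enzyme class). Of the 41 genes, 30 were under 20% in all 3 pools and 16 of these under 5%. The share under 20% in every pool was 73.2%, and over all shared windows it was 75.9%. The share under 5% was 39.02%, and over all shared windows 46.6%. The 4 genes over 80% in every pool were Cyp26c1, Cyp27b1, Cyp2a12 and Cyp2j6, and the remaining 7 were Cyp17a1, Cyp2a4, Cyp2c23, Cyp2d40, Cyp2g1, Cyp2t4 and Cyp7a1. Those 4 are 9.76% of the genes, and 9.65% of all shared windows were as high. The windows of Cyp26c1 and Cyp2j6 are centred near transcript starts that lie inside longer annotated genes. The median level was 3.64% in Tet2KO, 2.0% in 11-month WT and 2.63% in 2-month WT. Over all shared windows the medians were 2.17% in Tet2KO, 2.72% in 11-month WT and 3.23% in 2-month WT. The order of the pools depends on the measure and on the genes taken. By the deposited fraction the median of the 41 genes was 2.38% in Tet2KO, 1.75% in 11-month WT and 5.0% in 2-month WT. Over all members that a pool listed, it was 3.66% of calls in Tet2KO (45 genes), 4.0% in 11-month WT (65 genes) and 6.82% in 2-month WT (57 genes).

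**Figure D1:**
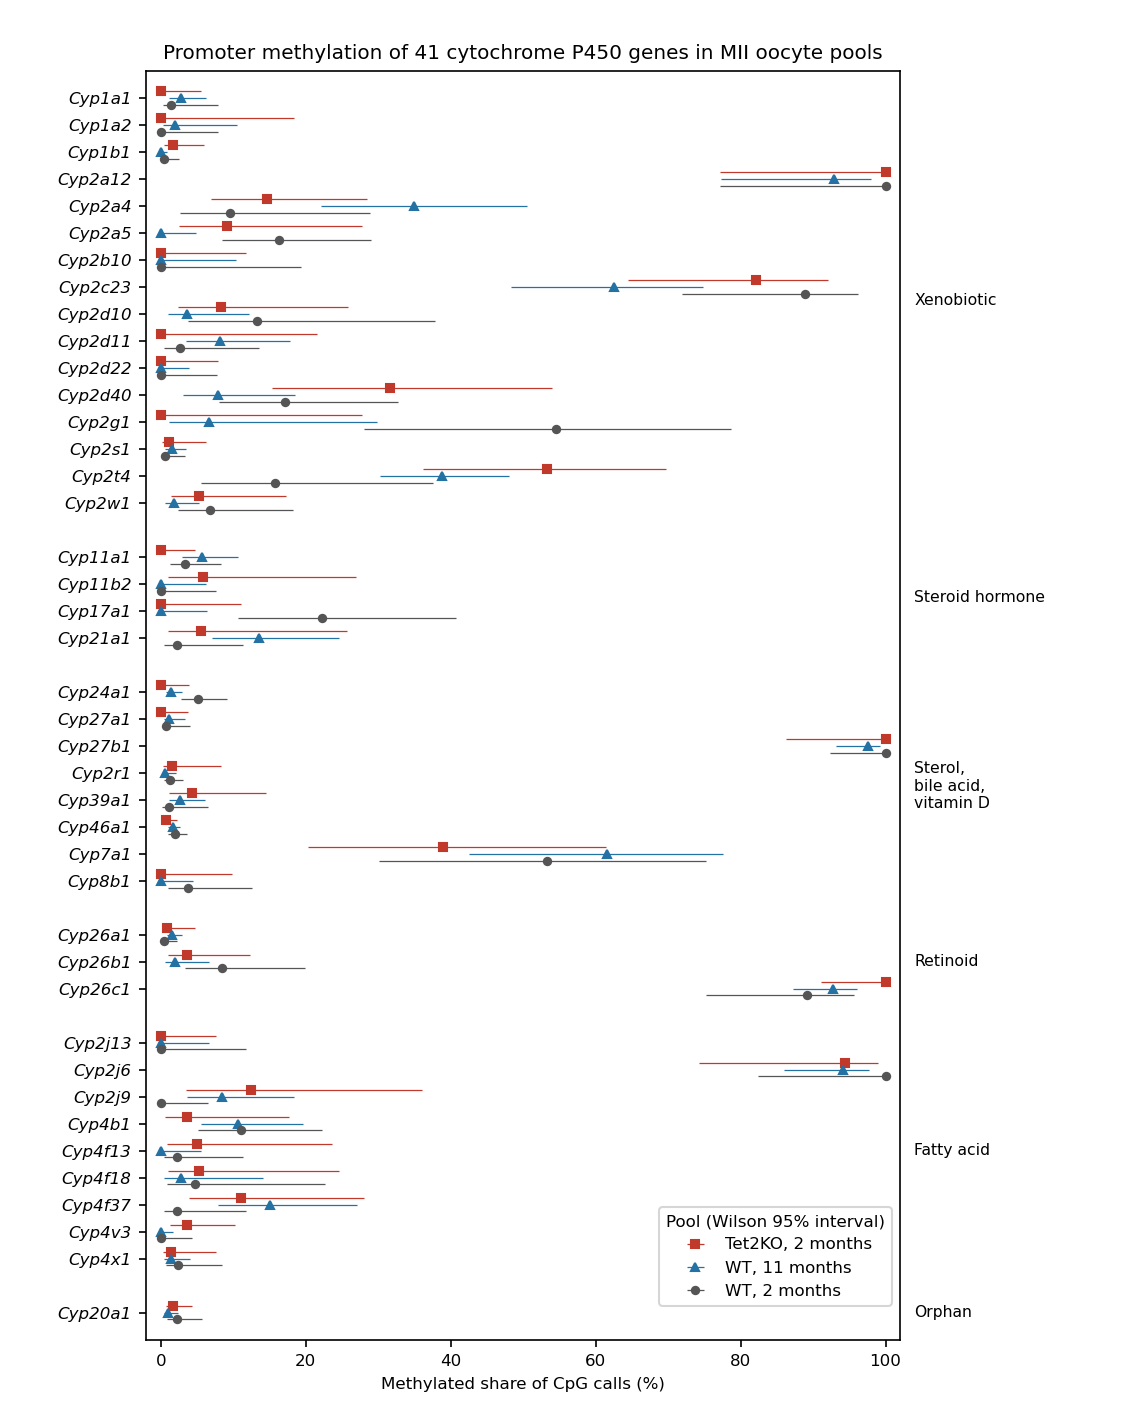
Methylated share of CpG calls (x axis, %) at 41 P450 promoters, 1 row per gene, grouped by enzyme class; squares are 2-month Tet2KO, triangles 11-month WT and circles 2-month WT pools, and bars are Wilson 95% intervals, which cover counting error only. Cyp26c1, Cyp27b1, Cyp2a12 and Cyp2j6 sit above 80% in every pool and 30 genes sit below 20% in every pool.

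The promoter sequences of genes at opposite ends of this range are shown because genes with equally few CpGs before the start lay at either end. Each line gives the 250 bases before the transcript start, 5′ to 3′ on the gene's strand, from RefSeq (GRCm38.p6, the assembly that mm10 represents), with each CpG in capitals. Cyp26c1 and Cyp26a1 are neighbours whose window starts lie 12227 bp apart, and Cyp27b1 is the highest gene of the vitamin D enzymes. Cyp1a1 is a low gene with few CpGs. The Cyp26c1 and Cyp1a1 stretches precede a transcript start inside the annotated gene, which begins at 37685112 for Cyp26c1 and at 57687928 for Cyp1a1.
Cyp26c1, chr19:37685430-37685679, strand +: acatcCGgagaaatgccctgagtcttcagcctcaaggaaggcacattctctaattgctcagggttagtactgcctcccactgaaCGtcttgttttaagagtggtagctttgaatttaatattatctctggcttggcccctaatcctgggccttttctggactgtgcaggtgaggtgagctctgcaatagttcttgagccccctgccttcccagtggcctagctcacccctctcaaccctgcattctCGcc
Cyp26a1, chr19:37697558-37697807, strand +: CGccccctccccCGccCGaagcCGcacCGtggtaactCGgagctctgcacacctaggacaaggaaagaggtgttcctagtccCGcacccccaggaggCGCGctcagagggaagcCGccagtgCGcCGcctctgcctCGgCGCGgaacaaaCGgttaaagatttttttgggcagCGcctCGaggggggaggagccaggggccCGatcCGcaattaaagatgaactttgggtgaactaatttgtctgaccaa
Cyp27b1, chr10:127047996-127048245, strand +: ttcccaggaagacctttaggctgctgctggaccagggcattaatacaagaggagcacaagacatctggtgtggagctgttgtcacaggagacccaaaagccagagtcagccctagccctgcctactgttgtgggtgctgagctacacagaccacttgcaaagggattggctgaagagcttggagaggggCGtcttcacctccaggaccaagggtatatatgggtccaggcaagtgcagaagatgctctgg
Cyp1a1, chr9:57697363-57697612, strand +: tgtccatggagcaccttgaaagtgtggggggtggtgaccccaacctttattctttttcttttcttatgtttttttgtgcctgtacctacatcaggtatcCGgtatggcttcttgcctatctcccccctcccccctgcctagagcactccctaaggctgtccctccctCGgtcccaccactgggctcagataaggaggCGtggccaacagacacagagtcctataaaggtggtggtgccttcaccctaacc

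The stretch before the Cyp26c1 start holds 3 CpGs and that before Cyp26a1 holds 20. The Cyp27b1 stretch holds 1 CpG and its window was above 80% in every pool, whereas the Cyp1a1 stretch holds 3 and its window was under 5% in every pool. The RefSeq table gave a promoter for 54 of the 68 genes with a window. Their median was 3.0 CpGs in 250 bases, and that of all 32851 promoters in the table was 6.0. The letters TATAAA, searched between 45 and 15 bases before the start on the gene's strand, were in 9 of the 54 (16.7%) and in 2.14% of all promoters. These were Cyp1a1, Cyp1a2, Cyp2a4, Cyp2a5, Cyp2a12, Cyp2a22, Cyp2c55, Cyp2e1 and Cyp8b1. GCGTG, the core bound by the dioxin receptor, was found on either strand in 11 of the 54 (20.4%) and in 28.2% of all promoters, and Cyp1a1 and Cyp1b1 were among the 11. CAAGGTCA, a form of the site of the steroidogenic factor Nr5a1, was in 0 of the 54 and in 1.33% of all promoters. Cyp11a1 was the only steroid hormone enzyme among the 54, so Cyp11b1, Cyp11b2, Cyp17a1 and Cyp21a1 were not searched. The windows are longer than these stretches, so levels and CpG counts cover different lengths.

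Xenobiotic enzymes were the largest class, with 51 genes, of which 31 had a window in some pool and 16 in all 3. Of the 16, 10 were under 20% in every pool. The class median was 3.49% in Tet2KO, 3.15% in 11-month WT and 8.17% in 2-month WT. For the 8 genes with at least 20 calls in every pool it was 3.49% in Tet2KO, 1.68% in 11-month WT and 4.14% in 2-month WT. For the 7 genes outside the tandem subfamilies Cyp2a, Cyp2b, Cyp2c and Cyp2d it was 1.15% in Tet2KO, 2.0% in 11-month WT and 1.47% in 2-month WT, so the median of 2-month WT was not the highest there. Of these 7, Cyp2g1 (54.5%) and Cyp2w1 (6.82%) were still highest in 2-month WT, and the others in Tet2KO or 11-month WT. The dioxin-induced family was low. Cyp1a1, which oxidises polycyclic aromatic hydrocarbons, was at 0% of 66 calls in Tet2KO, 2.73% of 183 calls in 11-month WT and 1.47% of 68 in 2-month WT. Cyp1a2, a liver enzyme that oxidises caffeine, was at 0% of 17 calls in Tet2KO, 2.0% of 50 in 11-month WT and 0% of 45 in 2-month WT. Cyp1b1, which hydroxylates oestradiol, was at 1.71% of 117 calls in Tet2KO, 0% of 476 in 11-month WT and 0.442% of 226 in 2-month WT. All 3 genes of that family stayed under 5%. A count of 0 allows a level of up to 3 calls of the total, by counting error alone, which is 17.6% for Cyp1a2 and 4.55% for Cyp1a1 in Tet2KO, 0.630% for Cyp1b1 in 11-month WT and 6.67% for Cyp1a2 in 2-month WT.

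Other xenobiotic genes were low as well. Cyp2b10, induced in liver through the receptor Nr1i3, had no methylated call among 29 in Tet2KO, 33 in 11-month WT and 16 in 2-month WT. Cyp2d22 had none among 45 calls in Tet2KO, 95 in 11-month WT and 46 in 2-month WT. For Cyp2b10 these zeros allow a level of up to 10.3% in Tet2KO, 9.09% in 11-month WT and 18.8% in 2-month WT. For Cyp2d22 they allow up to 6.67% in Tet2KO, 3.16% in 11-month WT and 6.52% in 2-month WT. Cyp2s1, whose promoter holds 15 CpGs in 250 bases, was at 1.15% in Tet2KO, 1.49% in 11-month WT and 0.606% in 2-month WT. All 3 genes were low as far as their depth can show. Cyp2w1, a P450 of the fetal gut, was at 5.26% in Tet2KO, 1.86% in 11-month WT and 6.82% in 2-month WT. Cyp2d10 and Cyp2d11 stayed between 0% and 13.3%.

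A smaller set of xenobiotic genes was high or intermediate. Cyp2a12, a steroid and drug hydroxylase of mouse liver, was at 100% of 13 calls in Tet2KO, 92.9% of 28 in 11-month WT and 100% of 13 in 2-month WT. Cyp2c23, an arachidonic acid epoxygenase, was at 82.1% of 28 calls in Tet2KO, 62.5% of 48 in 11-month WT and 88.9% of 27 in 2-month WT. Cyp2t4 was at 53.3% of 30 calls in Tet2KO, 38.7% of 111 in 11-month WT and 15.8% of 19 in 2-month WT. Cyp2d40 was at 31.6% of 19 calls in Tet2KO, 7.84% of 51 in 11-month WT and 17.1% of 35 in 2-month WT. Cyp2a12 was the only one of these 4 above 80% in every pool, and its levels rest on few calls.

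The steroid hormone enzymes were low apart from 1 value. Of the 6 genes of the class, 5 had a window, and 4 had one in every pool. Cyp11b1, Cyp11b2, Cyp17a1 and Cyp21a1 have no strand in the reference, so of the genes with a window only Cyp11a1 has a start given there. The windows of Cyp11b1 and Cyp11b2 also overlap Gml2 and Gm41347. Cyp11a1, the side chain cleavage enzyme that starts steroid synthesis, was at 0% of 78 calls in Tet2KO, 5.63% of 142 in 11-month WT and 3.33% of 120 in 2-month WT. Cyp17a1, which leads to androgens, was at 0% of 31 calls in Tet2KO, 0% of 56 in 11-month WT and 22.2% of 27 in 2-month WT. The 2-month WT pool thus held 6 methylated calls there and the other pools none, and the zeros allow levels of up to 9.68% in Tet2KO and 5.36% in 11-month WT. Cyp21a1, the adrenal enzyme of cortisol-type and aldosterone synthesis, was at 5.56% of 18 calls in Tet2KO, 13.6% of 59 in 11-month WT and 2.17% of 46 in 2-month WT. By the deposited fraction, which averages positions, Cyp21a1 was at 3.03% in Tet2KO, 6.25% in 11-month WT and 5.0% in 2-month WT, so 11-month WT was the highest pool by either measure but by less. Cyp11b2, aldosterone synthase, was at 5.88% of 17 calls in Tet2KO, 0% of 58 in 11-month WT and 0% of 47 in 2-month WT. Cyp11b1, its glucocorticoid-forming neighbour, was not listed for Tet2KO. In 11-month WT it was at 11.1% of 27 calls, and in 2-month WT at 0% of 36. The counts of 0 allow levels of up to 5.17% for Cyp11b2 in 11-month WT, and of 6.38% for Cyp11b2 and 8.33% for Cyp11b1 in 2-month WT; for Cyp11a1 in Tet2KO the limit is 3.85%. Cyp19a1, aromatase, had no window at its start in any pool.

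Of the enzymes of sterols, bile acids and vitamin D, 8 of 9 had a window in every pool, and they spanned the whole range. Cyp27b1, which activates vitamin D in the kidney, was at 100% of 24 calls in Tet2KO, 97.6% of 124 in 11-month WT and 100% of 46 in 2-month WT. Its window lies on chromosome 10 (127047250 to 127049249). Cyp24a1, which inactivates the hormone, was at 0% of 96 calls in Tet2KO, 1.45% of 482 in 11-month WT and 5.08% of 197 in 2-month WT. Cyp2r1, which carries out the first hydroxylation of vitamin D in liver, was at 1.56% of 64 calls in Tet2KO, 0.570% of 351 in 11-month WT and 1.23% of 326 in 2-month WT. Of these 3 vitamin D enzymes only Cyp27b1 was above 80%, and its intervals (from 86.2% upwards in Tet2KO, 93.1% in 11-month WT and 92.3% in 2-month WT) lay far above those of the other 2 genes.

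Cyp7a1, the rate-limiting enzyme of bile acid synthesis, was intermediate at 38.9% of 18 calls in Tet2KO, 61.5% of 26 in 11-month WT and 53.3% of 15 in 2-month WT. Its Wilson intervals ran from 20.3% to 61.4% in Tet2KO, from 42.5% to 77.6% in 11-month WT and from 30.1% to 75.2% in 2-month WT, and all 3 overlapped. The other bile acid and sterol enzymes were low. Cyp8b1, which sets the share of cholic acid, was at 0% of 35 calls in Tet2KO, 0% of 82 in 11-month WT and 3.70% of 54 in 2-month WT. Cyp27a1, a mitochondrial sterol hydroxylase, was at 0% in Tet2KO, 1.16% in 11-month WT and 0.735% in 2-month WT. The Tet2KO zeros allow up to 3.06% for Cyp27a1, 3.12% for Cyp24a1 and 8.57% for Cyp8b1, and the 11-month WT zero of Cyp8b1 up to 3.66%. Cyp39a1, an oxysterol hydroxylase, was at 4.35% in Tet2KO, 2.65% in 11-month WT and 1.20% in 2-month WT. Cyp46a1, the brain cholesterol hydroxylase, was at 0.783% of 383 calls in Tet2KO, 1.65% of 970 in 11-month WT and 1.90% of 473 in 2-month WT. Cyp46a1 was the deepest window of the family and Cyp7a1 one of the shallowest. The windows of Cyp24a1 and Cyp39a1, genes with no strand in the reference, also overlap Pfdn4 and Slc25a27.

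The retinoic acid hydroxylases differed among themselves. Cyp26c1 was at 100% of 39 calls in Tet2KO, 92.8% of 138 in 11-month WT and 89.2% of 37 in 2-month WT. Cyp26a1, next to it on chromosome 19, was at 0.870% of 115 calls in Tet2KO, 1.55% of 579 in 11-month WT and 0.408% of 245 in 2-month WT. Cyp26b1, which keeps retinoic acid from fetal male germ cells, was at 3.64% of 55 calls in Tet2KO, 1.90% of 105 in 11-month WT and 8.51% of 47 in 2-month WT. The high level of Cyp26c1 and the low level of Cyp26a1 were thus present in all 3 pools. Both windows overlap Gm32342, a further annotated gene.

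Fatty acid enzymes numbered 28, of which 20 had a window and 9 had one in every pool. Of those 9, 8 were under 20% in all pools. Cyp4v3, a fatty acid hydroxylase, was at 3.66% of 82 calls in Tet2KO, 0% of 219 in 11-month WT and 0% of 85 in 2-month WT. Cyp4x1 was at 1.43% in Tet2KO, 1.40% in 11-month WT and 2.44% in 2-month WT. Cyp4b1, Cyp4f13, Cyp4f18, Cyp4f37 and Cyp2j9 lay between 0% and 15.1% across the pools. Cyp2j6, an arachidonic acid epoxygenase, was the exception at 94.4% of 18 calls in Tet2KO, 94.2% of 69 in 11-month WT and 100% of 18 in 2-month WT. Cyp20a1, an orphan P450 with a CpG-rich promoter, was at 1.69% in Tet2KO, 1.01% in 11-month WT and 2.27% in 2-month WT.

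Genes of the same tandem cluster could lie at opposite ends of the scale (plot of clusters in chromosome order). In the Cyp2j cluster of chromosome 4, Cyp2j13, Cyp2j12 and Cyp2j11 had no methylated call in any pool that listed them. In 11-month WT these zeros allow up to 5.56% for Cyp2j13, 10.7% for Cyp2j12 and 18.8% for Cyp2j11. In Tet2KO the limit for Cyp2j13 is 6.38%, and in 2-month WT it is 10.3% for Cyp2j13 and 17.6% for Cyp2j12. Cyp2j8 and Cyp2j6, next to each other, were between 94.2% and 100% in the pools that listed them. Cyp2j9 beyond them was at 12.5% of 16 calls in Tet2KO, 8.47% of 59 in 11-month WT and 0% of 55 in 2-month WT. The promoters of the high Cyp2j6 and the low Cyp2j13, printed as above with CpGs in capitals, both hold 3 CpGs before the start. The Cyp2j6 stretch lies inside the annotated gene, which on the minus strand begins at 96564305.
Cyp2j6, chr4:96553652-96553901, strand -: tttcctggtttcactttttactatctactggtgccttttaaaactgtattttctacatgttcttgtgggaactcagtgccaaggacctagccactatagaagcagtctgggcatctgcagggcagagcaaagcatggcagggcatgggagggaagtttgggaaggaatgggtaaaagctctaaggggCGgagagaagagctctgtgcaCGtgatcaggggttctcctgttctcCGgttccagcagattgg
Cyp2j13, chr4:96077541-96077790, strand -: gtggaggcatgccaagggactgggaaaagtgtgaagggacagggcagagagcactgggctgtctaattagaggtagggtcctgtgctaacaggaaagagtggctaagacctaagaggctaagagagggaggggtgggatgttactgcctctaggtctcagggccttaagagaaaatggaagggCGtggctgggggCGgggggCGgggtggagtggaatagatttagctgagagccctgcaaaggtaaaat

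The Cyp2 cluster of chromosome 7 holds 12 of the genes with a window, over 1337 kb. Cyp2s1 and Cyp2b10 at one end were observed under 2% in all pools, and Cyp2a12 towards the other end above 90% in all of them. The zeros of Cyp2b10 allow up to 10.3% in Tet2KO, 9.09% in 11-month WT and 18.8% in 2-month WT. The Wilson intervals of Cyp2a12 begin at 77.2% in Tet2KO, 77.4% in 11-month WT and 77.2% in 2-month WT. In 11-month WT, the pool that listed 11 of the 12, 4 genes were under 20% and 4 were over 80%. Of all 40537 shared windows in that pool, 32769 were under 20% and 4601 (11.4%) over 80%. Among the 11293 with 5 to 29 covered positions, 6464 were under 20% and 3084 (27.3%) over 80%. The cluster was not tested against these shares. In the Cyp2d cluster of chromosome 15, 0 of 8 genes exceeded 80% in any pool. The highest values there were 33.3% of 18 calls for Cyp2d12 in 2-month WT and 31.6% for Cyp2d40 in Tet2KO.

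**Figure D2:**
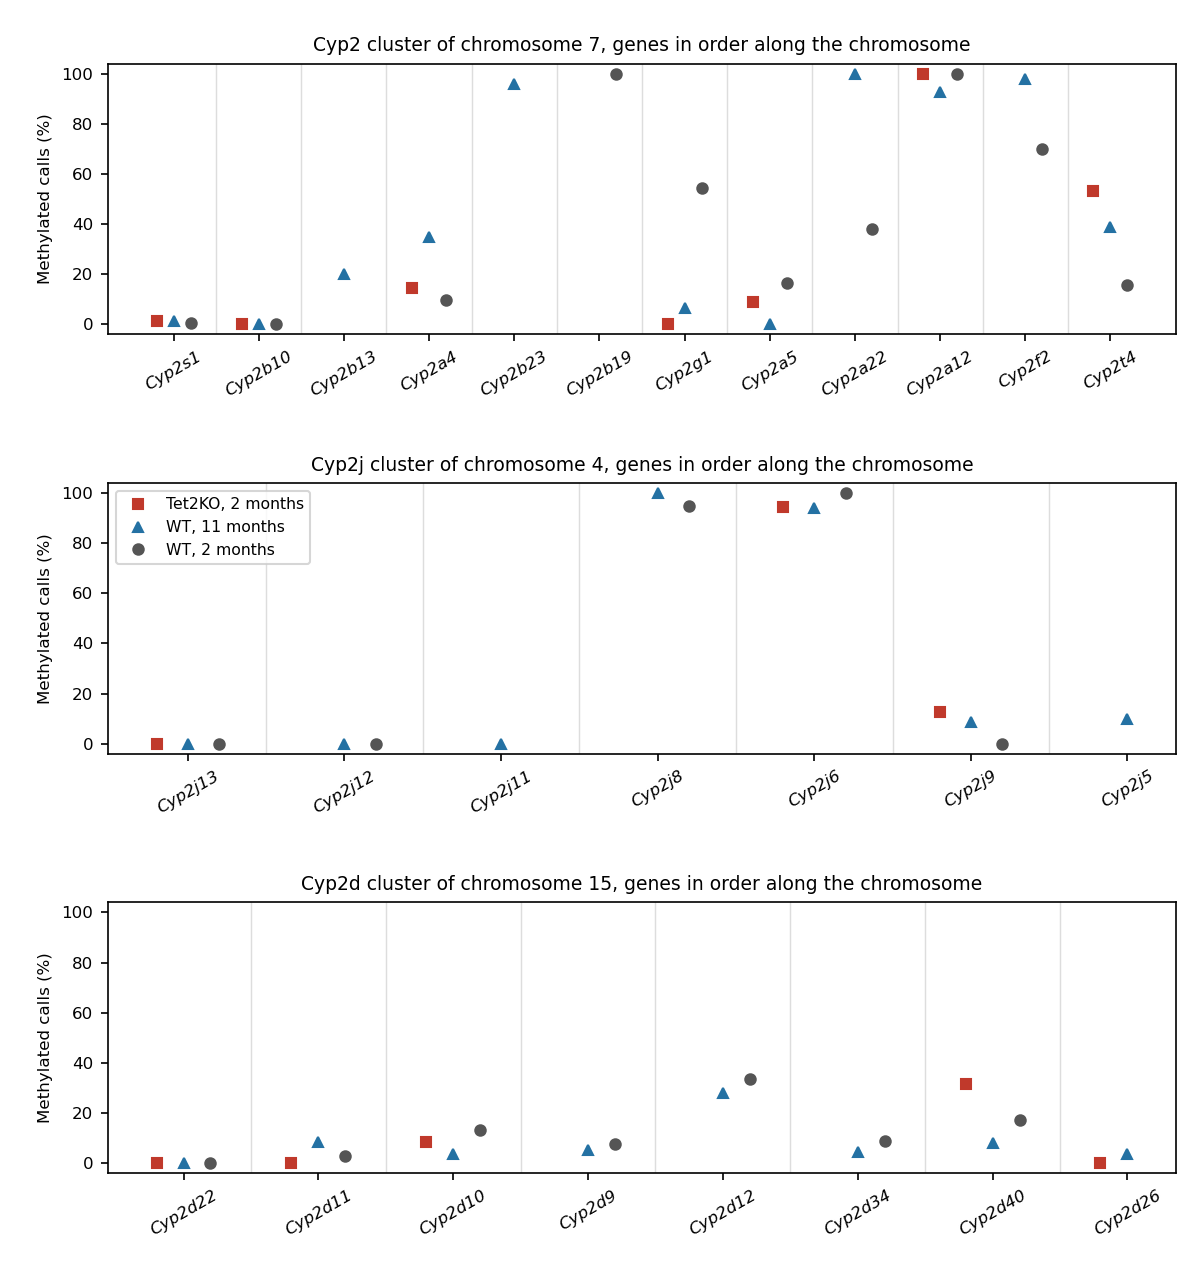
Methylated share of CpG calls (y axis, %) for P450 genes in their order along 3 gene clusters (x axis, equal spacing); squares are 2-month Tet2KO, triangles 11-month WT and circles 2-month WT pools, and a missing symbol means that the pool does not list the window. Cyp2j8 and Cyp2j6 stand at 94.2% to 100% between neighbours observed at 12.5% or less, where the zero of Cyp2j11 allows up to 18.8%.

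Some of these genes have near-identical copies. Within a chromosome, the pair of promoters most alike was Cyp2a4 and Cyp2a5, with 245 matches in 251 aligned columns (97.6%).
Cyp2a4, chr7:26306942-26307191, strand +: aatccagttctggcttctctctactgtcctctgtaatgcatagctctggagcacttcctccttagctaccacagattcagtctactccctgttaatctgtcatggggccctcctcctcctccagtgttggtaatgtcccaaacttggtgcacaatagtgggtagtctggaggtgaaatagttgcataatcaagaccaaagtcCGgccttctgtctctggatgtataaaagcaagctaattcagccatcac
Cyp2a5, chr7:26835089-26835338, strand +: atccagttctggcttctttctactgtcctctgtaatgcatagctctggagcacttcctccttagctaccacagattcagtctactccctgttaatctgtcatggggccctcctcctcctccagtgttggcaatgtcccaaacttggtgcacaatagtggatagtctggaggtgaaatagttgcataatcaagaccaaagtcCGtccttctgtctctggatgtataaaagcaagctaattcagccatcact

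Cyp2a4, a testosterone hydroxylase of mouse liver, was at 14.6% of 41 calls in Tet2KO, 35.0% of 40 in 11-month WT and 9.52% of 21 in 2-month WT. Cyp2a5, the coumarin hydroxylase, was at 9.09% of 22 calls in Tet2KO, 0% of 75 in 11-month WT and 16.3% of 49 in 2-month WT. The 11-month WT pool was thus the highest of the pools at Cyp2a4 and the lowest at Cyp2a5. How reads were shared between such copies was not tested, and the next most alike pair, Cyp2d9 and Cyp2d10, matched at 82.8%.

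Of the 7 genes past 20 points in any comparison, Cyp17a1, Cyp2c23, Cyp2g1 and Cyp7a1 have no strand in the reference, so their windows lie at an end of the gene that is not shown to be its start. Of the 76 members with a strand, 0 had a window at their far end, a check that genes without a strand do not allow. The windows of Cyp17a1, Cyp2g1 and Cyp2a4 also overlap another annotated gene (Gm41857, Gm51443 and Gm42375).

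The comparison of Tet2KO with WT at 2 months addressed the effect of losing Tet2, an enzyme that oxidises methylcytosine. At 20 percentage points (points), 1 of 41 genes was higher in Tet2KO and 2 were lower, which is 2.44% and 4.88% of the genes. Over all shared windows 3.29% were higher and 3.22% lower by that much, so the family counts lay near the background. In shared windows with 5 to 29 covered CpG positions, a range that holds 24 of the 41 members, 7.07% were higher and 5.24% lower. Cyp2t4 was higher by 37.5 points (Newcombe 95% interval 9.80 to 56.9). Cyp2g1, an enzyme of the olfactory mucosa, was at 0% of 10 calls in Tet2KO, 6.67% of 15 in 11-month WT and 54.5% of 11 in 2-month WT, a difference of -54.5 points between Tet2KO and 2-month WT (-78.7 to -16.1). At Cyp17a1 the difference was -22.2 points (-40.8 to -6.21). The zero of Cyp2g1 in Tet2KO allows a level of up to 30%. Each of these 3 windows had between 10 and 31 calls in the pools compared. Cyp17a1 was the member nearest to 20 points from inside and Cyp7a1, at -14.4 points, the nearest from outside. By the deposited fraction Cyp7a1 lay at -32.4 points and would be counted. The interval also left out 0 at Cyp2j9, at 12.5 points (1.38 to 36.0), and at Cyp24a1, at -5.08 points (-9.09 to -0.596). The share of all shared windows whose interval left out 0 was not computed for any comparison. Genes named by their interval are therefore not set against a background. The median difference of the 41 genes was 0 points, against -0.241 over all shared windows.

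The comparison of 11-month with 2-month WT addressed maternal age. At 11 months 2 of 41 genes lay 20 points or more above 2-month WT and 3 lay as far under it, or 4.88% and 7.32%, beside 2.78% higher and 2.76% lower over all shared windows. In windows with 5 to 29 covered positions those background shares were 6.11% higher and 4.46% lower. Cyp2a4 was higher by 25.5 points (2.21 to 42.4). At a second start window of Cyp2a4, which overlaps the first, the difference was 20.4 points and its interval included 0 (-2.65 to 36.5). Cyp2t4 was higher by 22.9 points (-0.442 to 36.8) and by 18.6 points by the deposited fraction. Cyp2g1 was lower, with a difference of -47.9 points (-72.7 to -12.7), as were Cyp2c23 at -26.4 (-42.3 to -5.46) and Cyp17a1 at -22.2 (-40.8 to -8.95). Cyp17a1 was the member nearest to the limit from inside, and Cyp2a5 at -16.3 points the nearest from outside. By the deposited fraction Cyp2a5 lay at -28.8 points and would be counted. Smaller differences whose interval left out 0 were those of Cyp4f37 at 12.8 points, Cyp21a1 at 11.4, Cyp2j9 at 8.47, Cyp24a1 at -3.62 and Cyp2a5 (-29.0 to -7.12). For these, too, no share over all shared windows is known. Steroid hormone enzymes thus had 1 of 4 genes lower and none higher by 20 points, and xenobiotic enzymes 2 of 16 in each direction. Sterol, retinoid and fatty acid enzymes had none.

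The comparisons with 2-month WT share that pool, so a value that stands apart there enters both, as at Cyp2g1, Cyp17a1 and Cyp2t4. Between Tet2KO and 11-month WT, which differ in age as well as genotype, 1 of 41 genes was higher in Tet2KO by 20 points and 2 were lower (2.44% and 4.88%), with 2.09% higher and 1.94% lower over all shared windows, and 4.45% higher and 4.32% lower in those with 5 to 29 positions. Cyp2d40 was higher by 23.7 points (4.33 to 46.6). Cyp7a1 differed by -22.6 points (-47.2 to 6.80) and Cyp2a4 by -20.4 (-37.7 to -1.49), and Cyp2c23 lay just under the limit at 19.6. By the deposited fraction Cyp2d40 was at 13.4 points and Cyp2a4 at -15.7, both under the limit. At the second start window of Cyp2a4 the difference was -15.8 points (-32.1 to 2.08), also under the limit. At Cyp11a1 the difference was -5.63 points (-10.7 to -0.193). The interval also lay above 0 for Cyp2a5 at 9.09 points, Cyp4v3 at 3.66 and Cyp1b1 at 1.71, again without a share over all shared windows.

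**Figure D3:**
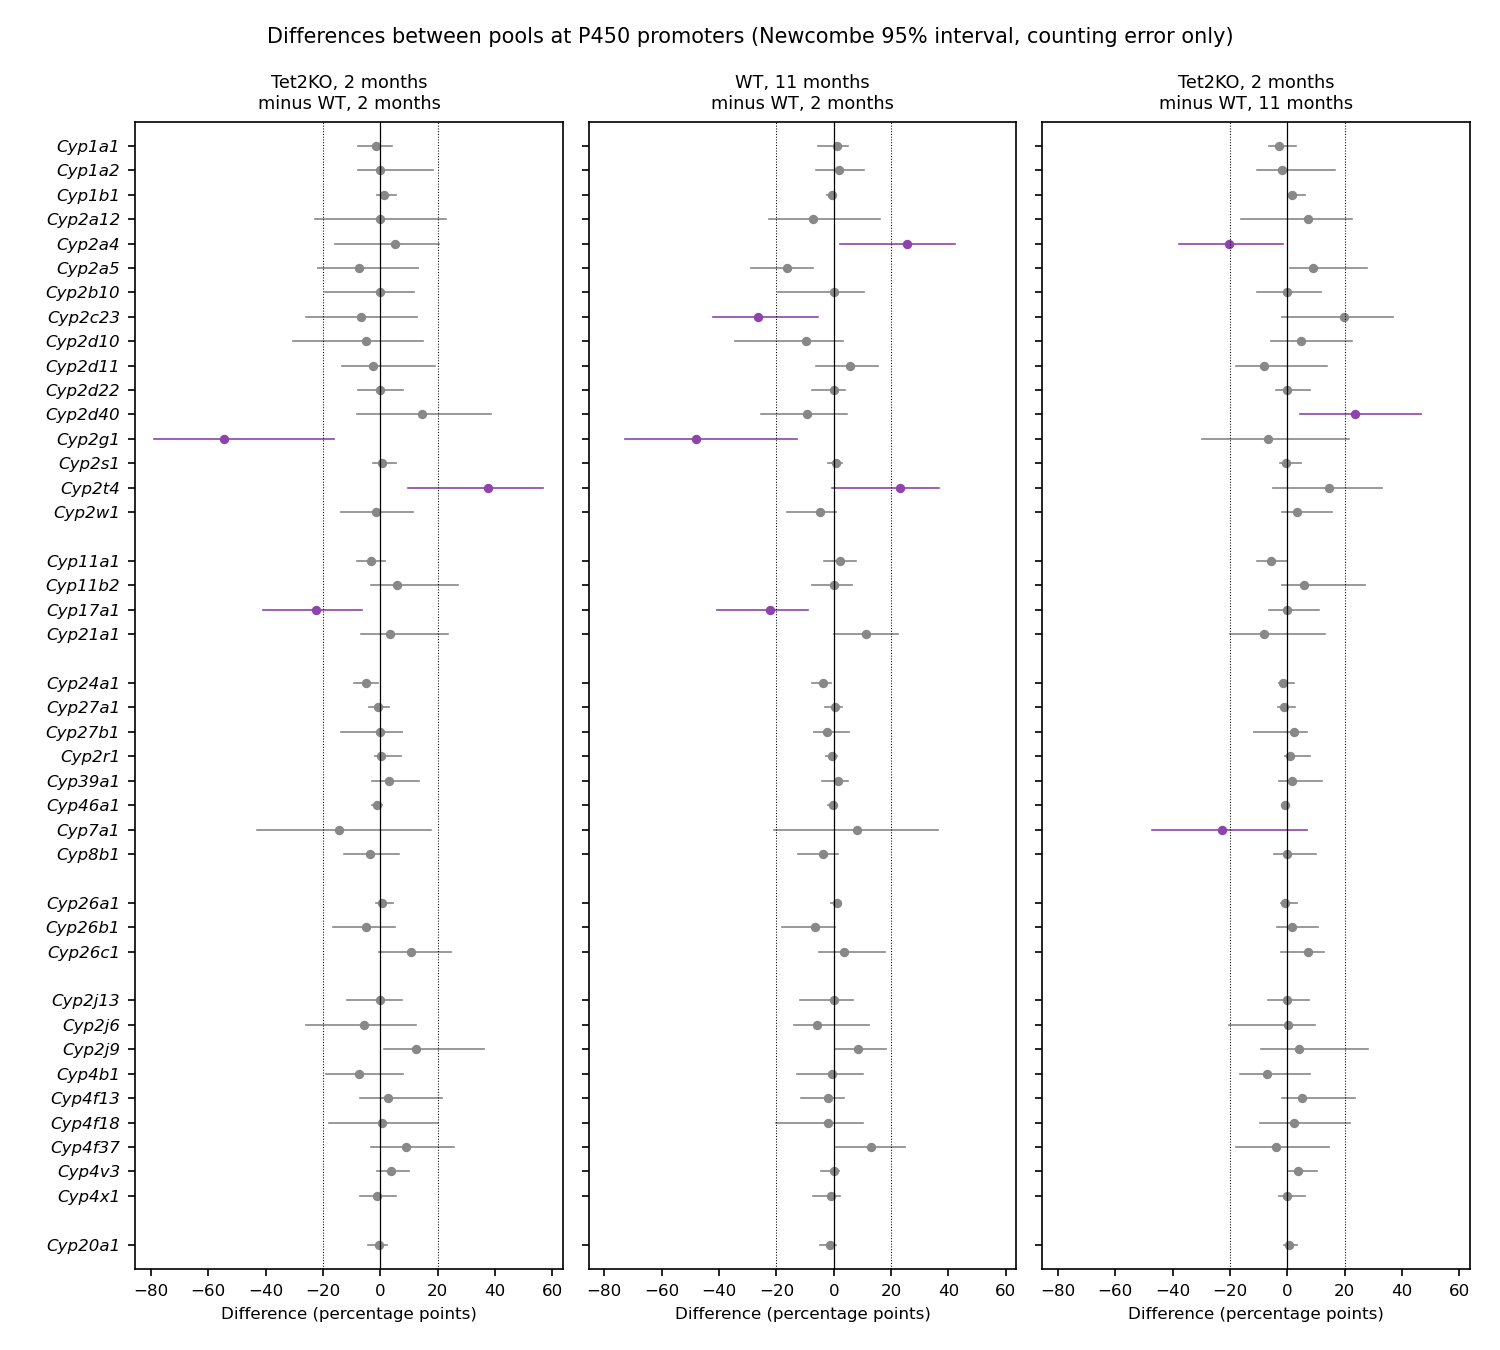
Differences in methylation level (x axes, percentage points) at 41 P450 promoters for Tet2KO minus 2-month WT, 11-month WT minus 2-month WT and Tet2KO minus 11-month WT; bars are Newcombe 95% intervals for counting error, dotted lines mark 20 points and coloured points lie beyond them. Cyp2g1 is the lowest point in the 2 panels that use 2-month WT, at -54.5 and -47.9 points.

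The depth behind these values was small. The members had a median of 31 calls in Tet2KO, 75 in 11-month WT and 46 in 2-month WT. All shared windows had a median of 79 in Tet2KO, 245 in 11-month WT and 131 in 2-month WT. Taking for each window the pool with the most covered CpG positions, the median was 26 positions for the members and 60 for all shared windows. With 30 to 79 positions, 76.9% of 13 members were under 5% in Tet2KO, 69.2% in 11-month WT and 76.9% in 2-month WT. Over all such windows 64.6% were in Tet2KO, 64.4% in 11-month WT and 60.1% in 2-month WT. The 4 members with 80 or more positions were at 5.08% or less, and of all such windows 86.0% were under 5% in Tet2KO, 85.1% in 11-month WT and 73.3% in 2-month WT. Among windows with 5 to 29 positions, 12.5% of members were over 80% in Tet2KO, 8.33% in 11-month WT and 12.5% in 2-month WT, and over all such windows 27.5% in Tet2KO, 27.3% in 11-month WT and 26.4% in 2-month WT. The members are a small set that was not tested against other windows.

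**Figure D4:**
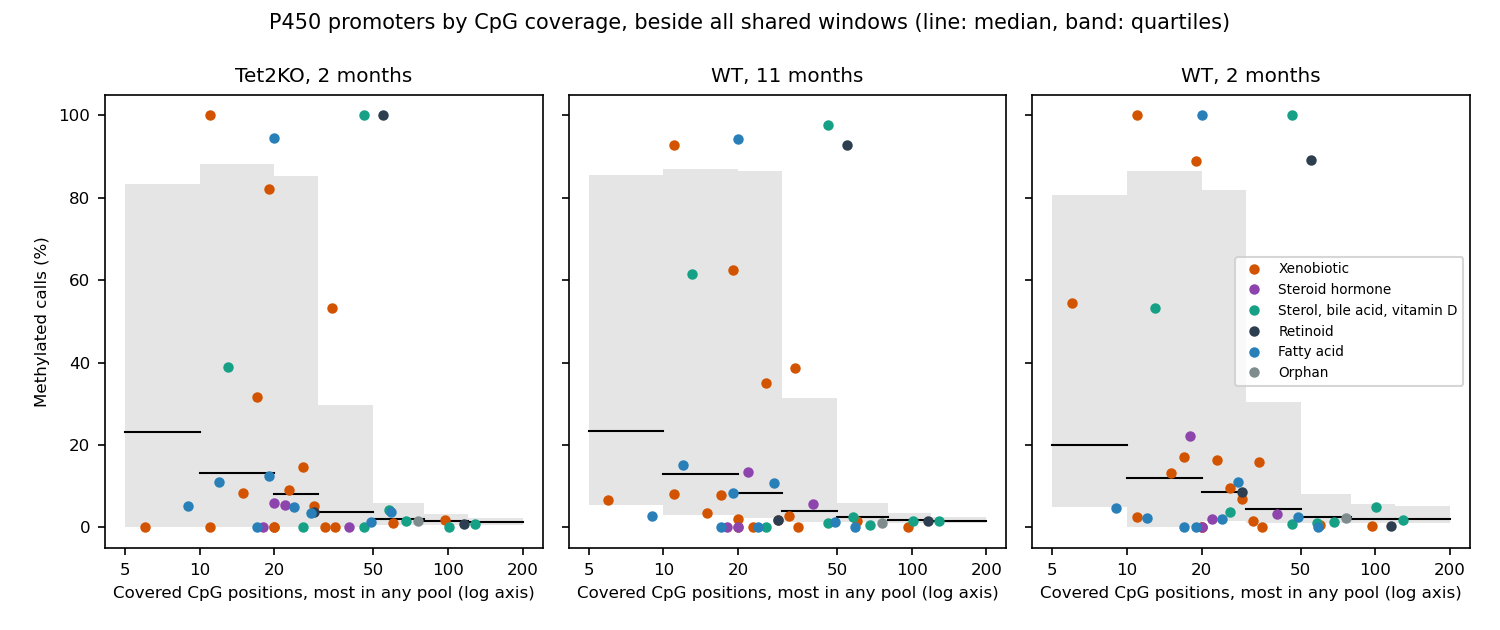
Methylated share of CpG calls (y axis, %) of 41 P450 promoters against the highest number of CpG positions covered in any pool (x axis, log scale), 1 panel per pool, coloured by enzyme class; black lines and grey bands are the median and the quartiles of all shared windows in each range of positions. Cyp27b1 and Cyp26c1 are the points near the top right, with 46 and 55 positions.

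Genes listed for fewer than 3 pools included well known xenobiotic enzymes. Tet2KO listed 45 of the 98 genes, 11-month WT 65 and 2-month WT 57. Of 49668 nuclear windows in any pool, Tet2KO listed 41729, 11-month WT 48583 and 2-month WT 46191, the same order of pools. Cyp2e1, which oxidises ethanol, was not listed for Tet2KO. In 11-month WT it was at 0% of 28 calls, which allows up to 10.7%, and in 2-month WT at 38.1% of 21, a difference of -38.1 points (-59.1 to -17.0). Cyp2f2, of lung club cells, had 98.0% of 50 calls methylated in 11-month WT, and 70% of 20 in 2-month WT, a difference of 28.0 points (10.4 to 49.96). Cyp2a22 had 100% of 20 calls methylated in 11-month WT, and 38.1% of 21 in 2-month WT, a difference of 61.9 points (35.4 to 79.2). At Cyp2f2 and Cyp2a22 the 11-month pool was higher, and at Cyp2e1 lower. Cyp2b23 was listed for 11-month WT alone, at 95.8% of 24 calls, and Cyp2b19 for 2-month WT alone, at 100% of 17 calls. Of 9 Cyp3a genes, which include the main drug enzymes of liver and gut, Cyp3a13 and Cyp3a44 were listed, for 11-month WT alone, at 6.25% of 16 calls and 20.0% of 15 calls, and Cyp3a11 was not. Of 15 Cyp2c genes 4 were listed. The 22 unlisted genes with a sequence in the promoter table had a median of 1.0 CpG in 250 bases.

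Partner genes of the P450 system were mostly low, as were promoters in general. Over all shared windows 75.9% were under 20% in all 3 pools. Of 6 electron donor genes, 5 had a window in every pool and all 5 were under 20%. Por, the reductase that serves microsomal P450 enzymes, was at 1.16% of 258 calls in Tet2KO, 1.18% of 591 in 11-month WT and 1.49% of 268 in 2-month WT. Cyb5a, cytochrome b5, was at 0% of 57 calls in Tet2KO, 3.29% of 213 in 11-month WT and 18.5% of 92 in 2-month WT. Of 15 receptors and factors that control P450 genes, 13 had a window in every pool and 10 of them were under 20% throughout. Ahr, the dioxin receptor, was at 0% in Tet2KO, 1.31% in 11-month WT and 3.26% in 2-month WT. Cyb5a and Ahr have no strand in the reference, so their windows lie at an end not shown to be the start.

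Other steroidogenic genes covered the whole range. Star, which brings cholesterol into mitochondria, was at 100% of 26 calls in Tet2KO, 91.7% of 48 in 11-month WT and 96.3% of 27 in 2-month WT. Hsd11b2, which inactivates glucocorticoids, was at 72.5% of 222 calls in Tet2KO, 95.2% of 313 in 11-month WT and 97.8% of 46 in 2-month WT. Of 6 such genes with a window in every pool, 3 were under 20% throughout, beside 75.9% of all shared windows. Star and Hsd11b2 have no strand in the reference, so their windows lie at an end not shown to be the start. Cyp51 and Tbxas1, P450 enzymes whose symbols fall outside the rule, stayed under 7% in all 3 pools.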

How the data were processed

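MII oocytes of 3 groups were profiled by low-input methylation sequencing, per the labels, after a published bisulfite method. The submitters' processing notes name Trimmomatic, Bismark (version field 12.5) and mm10 with their roles and other steps not given in the sources used here. Per the file values, the authors deposited, for each group, counts of methylated and unmethylated CpG calls, the coverage (all calls) and the number of covered positions per 2000-bp window, and a fraction that averages the methylated share over positions. The smallest listed windows had 10 calls and 5 positions. The table of 2-month WT ends in an incomplete line, on the X chromosome, which was left out; 0 members lie on that chromosome.

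The level was 100 times methylated over all calls. Gene starts came from RefSeq (GRCm38.p6). For 22 P450 genes the reference gives no strand and either end was accepted, and 0 of them had windows at both ends. Either end was also accepted for partner and imprinted genes without a strand, H19 among them. Wilson and Newcombe 95% intervals cover counting error only, as does the limit for a count of 0 (3 calls of the total); PCR copies and neighbouring CpGs are not independent. The interval code was tested on simulated data. Pooled values allow no test, so neither a model across libraries nor a p-value is given. The members, enzyme classes and lists were chosen with earlier results of these data known. Values in every pool are printed for genes past 20 points, for steroid, sterol, vitamin D and retinoid enzymes and for a few well known xenobiotic enzymes; further members were chosen after their values were seen. Alternatives changed the level measure, the calls required, the distance to the start, the windows and the threshold. Python 3.11.15, pandas 2.3.3, scipy 1.17.1 and Biopython 1.88 were used.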

Additional observations from a re-analysis of the deposited data

How the results depend on the processing

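Counts of members past 20 points are small and moved with the processing. The differences of the 7 genes past 20 points stayed inside their Newcombe intervals under the alternatives run on them. Most of those alternatives reuse the same window and calls of a gene or drop the gene, so they could hardly move its difference and show no stability. Of the recomputed medians, 143 stayed within the 95% order-statistic interval of the median (for under 6 genes, the range). That interval is wide: the recomputed xenobiotic medians in 2-month WT, from 0.606% to 8.29%, all lay within it. Counts below give higher, then lower, with 1 and 2 for Tet2KO against 2-month WT, 2 and 3 for 11-month against 2-month WT, and 1 and 2 for Tet2KO against 11-month WT as reported. With 20 calls in every pool (27 genes) they were 0 and 1, 1 and 2, and 0 and 1; with 50 calls (12 genes) all 6 were 0, and the median of the members in 2-month WT was 1.35% against 2.63%. By the deposited fraction the counts were 1 and 3 for Tet2KO against 2-month WT, 1 and 4 for age, and 0 and 1 for Tet2KO against 11-month WT. Without the subfamilies Cyp2a, Cyp2b, Cyp2c, Cyp2d, Cyp2j, Cyp3a, Cyp4a and Cyp4f (26 genes left) they were 1 higher for age, and 0 and 1 for Tet2KO against 11-month WT; Cyp2g1 and Cyp2t4, single genes inside the chromosome 7 cluster, remain under this setting. Averaging all windows of a gene left 1 lower in Tet2KO than in 11-month WT, a distance of 50 bp (31 genes) 0 higher, and windows listed for the 2 pools compared 1 lower there and 4 higher for age. The gene no longer counted as lower in the first and last of these settings was Cyp2a4, through its second window. At 10 points the higher counts were 4, 4 and 3 in the 3 comparisons; at 30 points they were 1, 0 and 0, and the lower counts 1, 1 and 0. Fewer genes or windows enter under several of these settings, which lowers counts by construction; otherwise the cause was not tested. No paired analysis was possible because the tables hold 1 pooled value per group, and for the same reason no library could be left out in turn. Depth limits single genes: at Cyp17a1, with 31 calls in Tet2KO and 27 in 2-month WT, the interval is wider than the difference.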
